A study of Mus musculus with 6 samples.

Results

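The genes described here encode the respiratory chain subunits that are made from nuclear DNA. They were chosen by symbol, as the Nduf, Sdh, Uqcr, Cox4 to Cox8 and Atp5 genes plus Cyc1 and Cycs. The choice was made with earlier results of these data known. This name rule gave 84 of the 14798 genes listed. Complex I accounted for 35 of them, complex II for 4, complex III for 9, complex IV for 16 and complex V, the ATP synthase, for 15. Cytochrome c (Cycs) was 1 more gene, and 4 relatives matched the name rule without being standard subunits. These were Atp5s and Atp5sl, which are not counted here among the ATP synthase subunits, Cox7a2l, a factor of supercomplex assembly, and Ndufa4l2, a relative of Ndufa4.

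The tissue was mouse left ventricular scar, from RNA-seq libraries prepared 6 weeks after an infarct made by LAD ligation, the tying of a main coronary artery, at 10 weeks of age. The deletion group carried Sox9 fl and Per-Cre, and the control group was Sox9 fl/fl with no Cre named, with 3 libraries each. Floxed Sox9 was thus shared by both groups. The series description gives fibroblasts as the cells in which the Cre acts, and neither the promoter behind the name nor a control that carries the Cre alone is given in the sources used here. The labels put the age of the tissue donors at 14 to 16 weeks and do not say whether each library came from a separate animal, so part of the spread behind the p-values may be technical.

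The respiratory chain sits in the inner mitochondrial membrane. Complexes I and II take electrons from NADH and succinate, complex III passes them to cytochrome c, and complex IV hands them to oxygen. The proton gradient built along the way drives complex V. Cardiomyocytes are among the cells richest in mitochondria, whereas the fibroblasts of a healed scar hold far fewer, and several complex IV subunits exist as a heart and skeletal muscle form and a widely expressed form. The mitochondrial genome encodes further subunits of complexes I, III, IV and V, and those genes are not analysed here.

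The deleted gene, Sox9, stood at 42.1, 51.7 and 55.8 CPM (read counts scaled to the size of the library) in the deletion libraries, against 71.1, 75.8 and 67.7 CPM in the controls. Its log2 fold change, deletion over control, was -0.52 ± 0.15 (SE) with an adjusted p of 0.564 by edgeR's quasi-likelihood test with Benjamini-Hochberg adjustment. Library totals ran from 22666770 to 48515962 counts in the deletion group and from 18538171 to 55523974 in the control group. Replicates 2 and 3 of both groups held even counts only, while replicate 1 of both groups did not. The ribosomal precursor Rn45s also separated replicate 1, with 22484 CPM in the deletion library and 12176 CPM in the control library of that number, while the remaining 4 libraries held 623 to 1004 CPM. The series description speaks of polyadenylated RNA and the labels of total RNA, and which of these applies to each library is not settled here. The female-specific transcript Xist reached 812 CPM in control replicate 3 alone, and the highest of the remaining 5 libraries had 7.61 CPM. Ddx3y, a gene of the Y chromosome, was at 0.596 CPM in that library and at 122 to 146 CPM in the remaining 5, so control replicate 3 came from another animal than the rest. Deletion replicate 1 stood apart on the first principal component, which held 57.2% of the variance.

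Promoter sequence is shown for both members of 2 complex IV isoform pairs, subunits VIIa and VIII, since the muscle forms of these subunits had the highest log2 fold changes of the set. Cox7a1 and Cox8b are the muscle forms, and Cox7a2 and Cox8a are their widely expressed partners. The stretches are the 250 bases before the annotated gene start in RefSeq (GRCm38.p6), written 5′ to 3′ on the gene's strand. They lie at chr7:30183921-30184170 (plus strand) for Cox7a1, chr9:79759854-79760103 (minus strand) for Cox7a2, chr7:140900447-140900696 (minus strand) for Cox8b and chr19:7217617-7217866 (minus strand) for Cox8a. Capitals mark exact motif matches.
Cox7a1: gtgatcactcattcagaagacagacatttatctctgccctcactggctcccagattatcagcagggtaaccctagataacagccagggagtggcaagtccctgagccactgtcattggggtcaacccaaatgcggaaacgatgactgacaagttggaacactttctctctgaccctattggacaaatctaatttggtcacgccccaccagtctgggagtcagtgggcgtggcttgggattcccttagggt
Cox7a2: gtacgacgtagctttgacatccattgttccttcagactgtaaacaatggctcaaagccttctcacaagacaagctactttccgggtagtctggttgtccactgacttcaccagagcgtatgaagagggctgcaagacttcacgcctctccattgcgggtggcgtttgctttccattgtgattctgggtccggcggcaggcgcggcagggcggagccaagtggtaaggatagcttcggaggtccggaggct
Cox8b: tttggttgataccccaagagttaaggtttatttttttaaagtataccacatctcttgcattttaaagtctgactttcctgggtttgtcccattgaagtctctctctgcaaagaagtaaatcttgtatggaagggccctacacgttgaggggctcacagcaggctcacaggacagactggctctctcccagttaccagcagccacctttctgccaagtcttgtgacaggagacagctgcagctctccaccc
Cox8a: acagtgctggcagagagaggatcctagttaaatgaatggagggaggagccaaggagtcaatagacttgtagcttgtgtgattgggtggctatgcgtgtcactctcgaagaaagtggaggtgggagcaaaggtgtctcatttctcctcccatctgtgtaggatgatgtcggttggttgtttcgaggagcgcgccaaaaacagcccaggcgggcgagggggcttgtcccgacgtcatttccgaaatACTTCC
The capitals at the end of the Cox8a promoter are the part of an ETS/GABPA match that lies before the gene start.

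Of the 84 genes, 69 had a promoter entry, and 4 motifs known from respiratory genes were sought on both strands in 300 bases around each start, 250 before and 50 after it. The core CGCATGCG of the site of NRF1, a regulator of respiratory genes, which reads alike on both strands, was in 10 of 69 promoters (14.5%), against 2.07% of 27025 genes. The YY1 motif AAGATGGC was in 11 (15.9%), against 3.19% of all genes. The ERR motif AAGGTCA, bound by the estrogen-related receptors, was in 8 (11.6%), against 5.38%, and the ETS/GABPA motif CCGGAAGT was in 5 (7.25%), against 4.31%. Matches were counted per motif, whether or not they overlapped another motif. No match to any of the 4 motifs was found in 39 of the 69 promoters, those of Cox7a1, Cox7a2 and Cox8b among them.

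Nearly all messages of the respiratory chain had a higher mean in deletion scars, but no gene passed the adjusted test. All 84 genes were tested, 82 had a positive log2 fold change and 2 a negative one, Cox6b2 and Ndufa4l2. Their median log2 fold change was 0.83, or 1.78-fold, with quartiles of 0.72 and 0.95, beside a median of -0.02 over all 14771 genes tested, of which 47.6% were positive. None of them passed the threshold of an adjusted p below 0.05 by edgeR, which 0% of all genes passed. An unadjusted p below 0.05 was reached by 39 of the 84 in the direction of higher in deletion and by 0 in the other, where 5.3% of all genes reached it on the higher side. In 37 genes every deletion library lay above every control library, against 8.87% of all genes, and in 0 genes did the groups separate the other way, against 8.6% of all genes. Over all genes 1232 had an unadjusted p below 0.05 by edgeR, and DESeq2 called 51.

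The size of the difference rested unevenly on the libraries. The summed level of the 84 genes was 44184, 22631 and 19837 CPM in deletion replicates 1 to 3, against 21919.9, 12669.9 and 14916 CPM in the controls. Deletion replicate 1 was the highest library in 79 of the 84 genes, and control replicate 2 the lowest in 75. Deletion replicate 3 lay below control replicate 1, so the groups overlapped in the sum. As a share of all counts, the genes made up 3.69%, 2.29% and 2.03% of the deletion libraries and 2.12%, 1.39% and 1.62% of the control libraries.

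**Figure D1:**
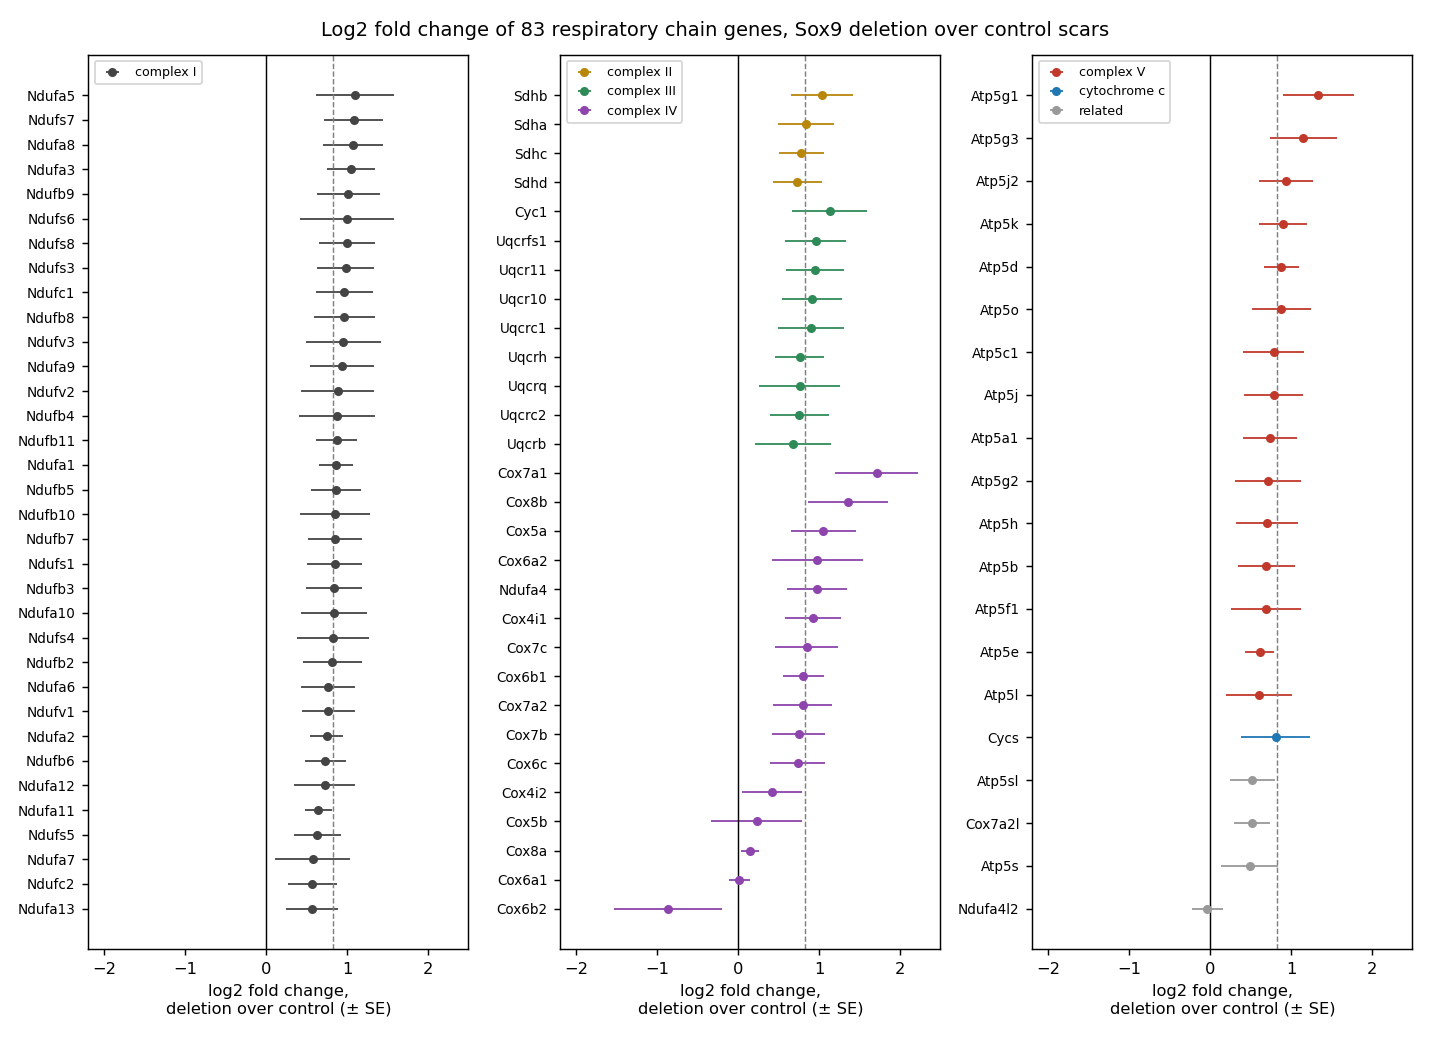
Log2 fold change (x axis, deletion over control) of 83 of the 84 genes (y axis), with bars of 1 standard error (n = 3 libraries each); the dashed line is the median of 0.83 over all 84. Most genes lie close to that line, and Cox7a1 (1.71) and Cox6b2 (-0.87) are the ends of the range.

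Complex I, the NADH dehydrogenase, had a median log2 fold change of 0.85 over its 35 genes. All 35 were positive, from 0.57 to 1.10. The 7 core subunits encoded in the nucleus, which carry the electron path, had a median of 0.88, and the 28 accessory subunits had 0.85. An unadjusted p below 0.05 was reached by 17 of the 35, all on the higher side, where 5.3% of all genes reached it. The groups did not overlap in 13, with deletion above control, against 8.87% of all genes.

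Ndufa5, an accessory subunit of the peripheral arm, had the highest log2 fold change of the complex, 1.10 ± 0.48 (SE), with 918, 349.8 and 302 CPM in deletion scars and 335, 179 and 218 CPM in control scars. Ndufa13, known also as GRIM-19, had the lowest, 0.57 ± 0.32 (SE), with 278, 160.3 and 147 CPM in deletion scars and 177, 103 and 114 CPM in control scars. In both genes control replicate 1 lay within the range of the deletion libraries.

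The accessory subunits with the smallest p-values differed from these in that replicate 1 of the controls did not stand out. Ndufa1, a small membrane subunit, was at 83.3, 51.1 and 52.6 CPM in deletion scars, against 33.2, 34.0 and 35.5 CPM in control scars, a log2 fold change of 0.86 ± 0.21 (SE). By edgeR its unadjusted p was 0.00538 and its adjusted p 0.564. Ndufa2 was at 113, 78.3 and 69.7 CPM in deletion scars, against 53.4, 52.3 and 49.8 CPM in control scars (0.75 ± 0.20, SE). Every deletion library of both genes was above every control library. Ndufa3 was at 218, 119 and 102 CPM, against 71.2, 63.9 and 76.2 CPM in controls (1.05 ± 0.30, SE). Ndufa11, a membrane-arm subunit, was at 137, 109 and 95.5 CPM, against 73.3, 68.3 and 77.2 CPM in controls (0.64 ± 0.17, SE). In each of these 4 genes the groups were fully separate and the control libraries were close together. The genes were named for their small p-values, a choice that favours such a pattern. Ndufa2 and Ndufa11 share exonic bases with Tmco6 and Vmac, so their counts are uncertain.

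Complex II, the succinate dehydrogenase, is the only complex of the chain whose subunits are all encoded in the nucleus. All 4 genes separated the groups completely, with deletion above control, as 8.87% of all genes did. All 4 also had an unadjusted p below 0.05 by edgeR on the higher side, where 5.3% of all genes did. Their median log2 fold change was 0.81. Sdha, the flavoprotein that oxidises succinate, was at 1817, 909.8 and 891 CPM in deletion scars, against 827, 551 and 641 CPM in control scars (0.84 ± 0.35, SE). Sdhb, the iron-sulfur subunit, was at 534, 253 and 217 CPM, against 199, 127 and 162 CPM in controls (1.04 ± 0.38, SE). Sdhd, a membrane anchor, was at 309.9, 179.9 and 149 CPM, against 148, 105 and 133 CPM in controls (0.73 ± 0.30, SE). The lowest deletion library of Sdhd was only just above the highest control library. Sdhc, the other anchor, had 0.78.

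Complex III, the cytochrome bc1 complex, had a median of 0.90 over 9 genes, all positive. Cyc1, the cytochrome c1 subunit that reduces cytochrome c, was the highest in log2 fold change at 1.13 ± 0.46 (SE), with 543, 215 and 173 CPM in deletion scars and 182, 108 and 134 CPM in control scars. Uqcrb, which helps to form the quinone pocket, had both the highest mean CPM and the lowest log2 fold change of the complex, 0.68 ± 0.47 (SE). It was at 1026, 468 and 397 CPM in deletion scars and 602, 259.9 and 319.8 CPM in control scars. Control replicate 1 was above deletion replicates 2 and 3 in Uqcrb. The 2 core proteins, Uqcrc1 and Uqcrc2, had 0.90 and 0.76, and the Rieske iron-sulfur protein, Uqcrfs1, had 0.96. Cycs, the mobile carrier between complexes III and IV, was at 1281, 648 and 554 CPM in deletion scars and 704, 322 and 393 CPM in control scars (0.81 ± 0.43, SE), with control replicate 1 above both lower deletion libraries.

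Complex IV, the cytochrome c oxidase, had the widest range of the 5 complexes, from -0.87 to 1.71, with 15 of its 16 genes positive and a median of 0.80. Cox7a1 had the highest log2 fold change of the 84 genes. This muscle form of subunit VIIa (chr7:30184171-30186030, mm10) was at 391, 143 and 111 CPM in deletion scars, against 90.4, 51.0 and 55.7 CPM in control scars, a log2 fold change of 1.71 ± 0.52 (SE). By edgeR its unadjusted p was 0.0139 and its adjusted p 0.564. Its widely expressed partner Cox7a2 was at 139.7, 59.7 and 58.9 CPM in deletion scars, against 56.4, 44.6 and 47.7 CPM in control scars (0.80 ± 0.36, SE). Neither gene's groups overlapped. Without deletion replicate 1 the log2 fold change of Cox7a1 was 0.95 and that of Cox7a2 was 0.25.

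Cox6a2, the muscle form of subunit VIa, was at 2128, 766 and 671 CPM in deletion scars, against 967, 389.9 and 454 CPM in control scars (0.98 ± 0.56, SE), with control replicate 1 above deletion replicates 2 and 3. Its log2 fold change was 0.25 without deletion replicate 1. The widely expressed form Cox6a1 was level at 26.2, 27.1 and 24.9 CPM in deletion scars and 27.9, 23.5 and 26.0 CPM in control scars (0.01 ± 0.13, SE). Per kilobase of transcript, Cox6a2 averaged 1817 CPM in deletion scars and 923 CPM in control scars. Cox6a1 averaged 49.3 CPM per kilobase in deletion scars and 48.9 CPM per kilobase in control scars, so the muscle form was the main one in both groups. Cox6a2 shares exonic bases with Itgad, which makes its level uncertain.

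Cox8b, the muscle form of subunit VIII, was at 260.4, 97.9 and 80.2 CPM in deletion scars, against 79.9, 43.8 and 48.0 CPM in control scars (1.35 ± 0.49, SE). Its deletion libraries were all above the controls, but deletion replicate 3 and control replicate 1 were almost equal. Without deletion replicate 1 its log2 fold change was 0.63. Cox8a, the widely expressed form, was at 58.1, 59.8 and 60.7 CPM in deletion scars and 53.2, 53.8 and 54.6 CPM in control scars, a log2 fold change of 0.14 ± 0.11 (SE) with an adjusted p of 0.644 by edgeR. The Cox8a groups did not overlap either, though the step between them was small. Per kilobase, Cox8b averaged 407 CPM in deletion scars and 159 CPM in control scars, and Cox8a averaged 110.1 CPM per kilobase in deletion scars and 99.6 CPM per kilobase in control scars.

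**Figure D2:**
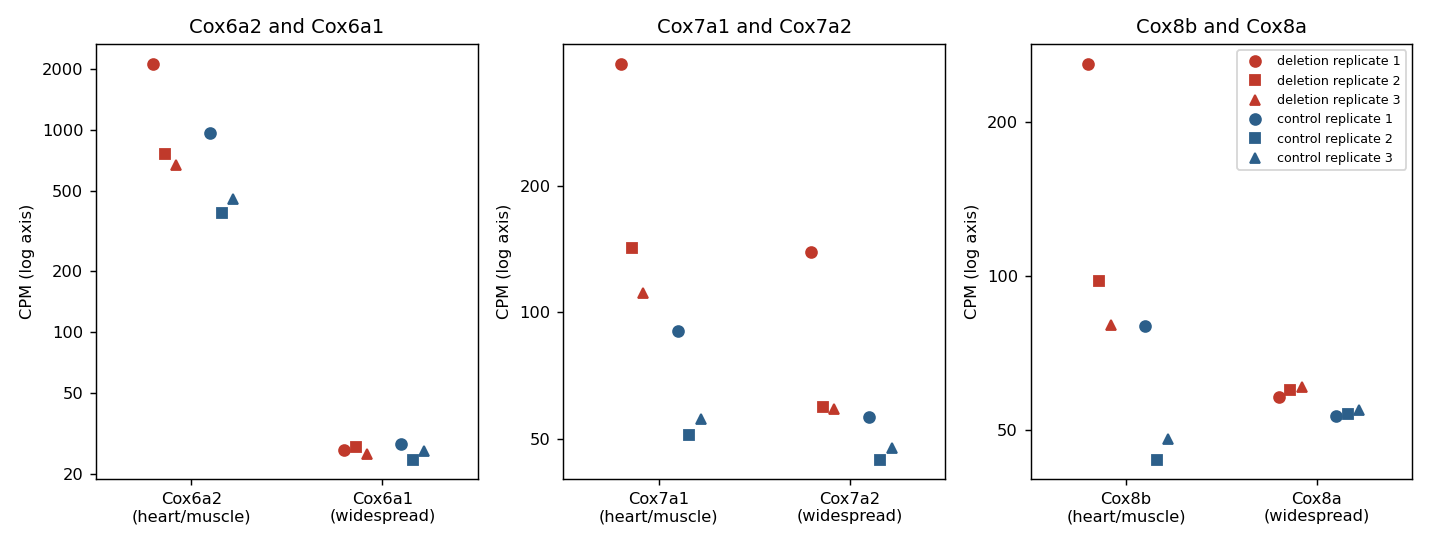
CPM on a log axis in each of the 6 libraries for 3 pairs of complex IV isoforms, the heart and muscle form on the left of each panel and the widely expressed form on the right, deletion libraries in red and control libraries in blue. The muscle forms spread over a wide range with deletion replicate 1 on top, while Cox6a1 stays between 23.5 and 27.9 CPM and Cox8a between 53.2 and 60.7 CPM.

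Other pairs were ordered differently. Cox4i1, the main form of subunit IV, was at 668, 349 and 289 CPM in deletion scars, against 270.02, 191 and 226 CPM in control scars (0.93 ± 0.34, SE). Cox4i2, a form known from lung and from low oxygen, was at 11.8, 6.08 and 4.51 CPM in deletion scars and 6.29, 4.90 and 5.43 CPM in control scars (0.42 ± 0.37, SE), with overlapping groups. Cox4i2 was nearer to level than Cox4i1. Ndufa4, now counted as a complex IV subunit, was at 334, 159 and 141 CPM in deletion scars, against 133, 83.9 and 105 CPM in control scars (0.98 ± 0.37, SE). Its relative Ndufa4l2, a gene induced by hypoxia, was at 10.2, 10.2 and 8.13 CPM in deletion scars and 8.46, 9.43 and 11.4 CPM in control scars (-0.04 ± 0.19, SE), again with overlap. Cox6b2, a form best known from testis, had few reads, 0.317, 2.32 and 1.85 CPM in deletion scars and 1.503, 3.29 and 3.61 CPM in control scars (-0.87 ± 0.66, SE). It was low in replicate 1 of both groups, and the groups overlapped.

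The ratio of the 2 forms within a library does not depend on library scaling. The log2 ratio of Cox7a1 to Cox7a2 was 1.49, 1.26 and 0.92 in deletion scars, against 0.68, 0.19 and 0.23 in control scars, a difference of 0.85. That of Cox4i2 to Cox4i1 was -5.83, -5.85 and -6.00 in deletion scars, against -5.42, -5.29 and -5.38 in control scars, a difference of -0.53. Both ratios separated the groups fully.

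Atp5g1 and Atp5g2 encode the same mature c subunit of complex V, and the log2 ratio of Atp5g1 to Atp5g2 was 0.987, 1.005 and 0.928 in deletion scars, against 0.524, 0.332 and 0.196 in control scars, a difference of 0.62. For these 3 ratios the two-sided exact permutation test gave p = 0.1, the smallest value 3 against 3 libraries allow, and 0.2 after adjustment over the 6 pairs. The Cox8b to Cox8a ratio differed by 1.06 (exact p = 0.2, adjusted 0.24) and the Ndufa4l2 to Ndufa4 ratio by -0.92 (exact p = 0.2, adjusted 0.24). The Cox6a2 to Cox6a1 ratio differed by 0.88 (exact p = 0.3, adjusted 0.3). Without deletion replicate 1 the difference was 0.52 for Cox8b to Cox8a, 0.36 for Cox6a2 to Cox6a1, 0.72 for Cox7a1 to Cox7a2 and -0.59 for Ndufa4l2 to Ndufa4. With all libraries the groups overlapped in the Cox8b, Ndufa4l2 and Cox6a2 ratios, and no ratio could pass 0.05 with this number of libraries.

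Complex V had a median of 0.78 over 15 genes, all positive, from 0.60 to 1.34. The genes of the c ring, the rotor in the membrane, had a median of 1.15 over 3 genes. The 5 genes of F1, the part that makes ATP, had 0.74, and the 7 genes of the peripheral stalk and the rest of the membrane part had 0.78. Atp5b, the catalytic beta subunit, had the highest mean CPM of the complex, with 3553, 2066 and 1829 CPM in deletion scars and 2020, 1192 and 1392 CPM in control scars (0.69 ± 0.35, SE). Control replicate 1 was level with deletion replicate 2 in Atp5b.

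Atp5g1 was the highest of the complex in log2 fold change, 1.34 ± 0.44 (SE), with 254, 106 and 86.6 CPM in deletion scars, against 72.9, 44.7 and 58.8 CPM in control scars and no overlap. Atp5g2 was at 128, 52.6 and 45.5 CPM in deletion scars and 50.7, 35.5 and 51.3 CPM in control scars (0.71 ± 0.41, SE), with overlap. Without deletion replicate 1 Atp5g1 was at 0.70 and Atp5g2 at 0.090. Atp5g3, the third gene for this subunit, had 1.15. Atp5d, the delta subunit of F1, had the smallest p-value of the 84 genes, an unadjusted 0.00527 with an adjusted p of 0.564 by edgeR. It was at 134, 91.0 and 79.2 CPM in deletion scars, against 55.0, 51.1 and 59.0 CPM in control scars (0.88 ± 0.22, SE), with a clear gap between the groups. Atp5l, subunit g of the membrane part, was the lowest of the complex at 0.60 ± 0.41 (SE), with 349, 188 and 162 CPM in deletion scars and 233, 106 and 121 CPM in control scars, where control replicate 1 was above both lower deletion libraries.

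The 4 relatives had a median of 0.50. Atp5sl and Cox7a2l had no overlap between the groups, with 0.52 each, and Atp5s had 0.49 with overlap. Over all genes, 8.87% had no overlap with deletion above control. Without deletion replicate 1 Atp5sl was at 0.18 and Cox7a2l at 0.24.

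The complexes differed between the groups by similar factors. Summed CPM, as a ratio of the group means, was 1.82 for complex I, 1.80 for complex II, 1.78 for complex III, 1.75 for complex IV, 1.69 for complex V and 1.75 for cytochrome c. The share of complex I in the summed CPM of all 84 genes was 28.1%, 27.3% and 27.0% in deletion scars, against 26.6%, 26.6% and 26.4% in control scars (27.5 ± 0.602% and 26.5 ± 0.126%, SD, n = 3 each). These shares did not overlap, and their means were within 1 percentage point of each other. Complex V made up 32.1%, 34.4% and 34.5% in deletion scars and 33.9%, 34.7% and 35.3% in control scars, and complex IV made up 18.1%, 17.1% and 17.1% in deletion scars and 18.5%, 17.3% and 16.6% in control scars. Both overlapped. The shares add to a fixed total, so they are not independent of each other.

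**Figure D3:**
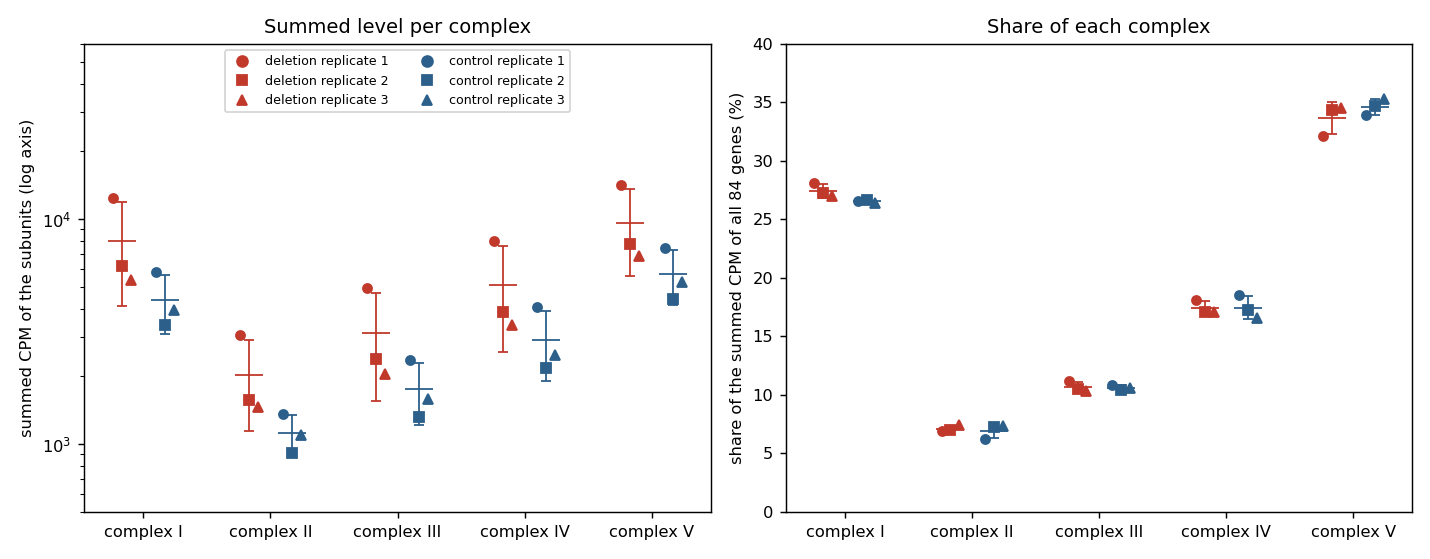
Summed CPM of each complex on a log axis (left) and its share in percent of the summed CPM of the 84 genes (right), per library, deletion in red and control in blue. Deletion replicate 1 has the highest sum in every complex, while the shares stay within a narrow band.

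How many genes passed depended on how the libraries and their spread were handled. Without deletion replicate 1 the median log2 fold change of the 84 genes was 0.37, 79 were positive, and 20 had an unadjusted p below 0.05 by edgeR on the higher side, where 2.72% of all genes did. In 76 genes with a positive log2 fold change, the value without this library was below the full value divided by 1.5. These include genes that turned negative, such as Cox5b (-0.24) and Cox4i2 (-0.071). The count at an unadjusted p below 0.05 was 40 without deletion replicate 2 (5.06% of all genes) and 58 without deletion replicate 3 (7.82% of all genes). It was 58 without control replicate 1 (6.47% of all genes), 7 without control replicate 2 (1.45% of all genes) and 9 without control replicate 3 (1.89% of all genes). Without deletion replicate 1 and control replicate 2 together, the highest and lowest of the set, the median was 0.24 and 71 were positive. In replicates 2 and 3 alone the median was 0.60 with 82 positive, and in the replicate 1 pair it was 1.07 with 81 positive.

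With a term for the libraries that hold even counts only, edgeR gave 77 of the 84 an unadjusted p below 0.05 on the higher side, against 13.8% of all genes, and 0 an adjusted p below 0.05, the lowest being 0.0614. The DESeq2 shares given here are of the genes to which it gave an adjusted p. DESeq2 on all 6 libraries called 0 of the 84 and 0.224% of 14733 genes on the higher side. With the even-count term DESeq2 called 75 of the 84 on the higher side, against 9.48% of 13911 genes. In replicates 2 and 3 alone it called 69, against 6.49% of 11337 genes, and 2 of the 84 had no adjusted p there. The tools thus parted on the adjusted calls, while the direction was shared.

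**Figure D4:**
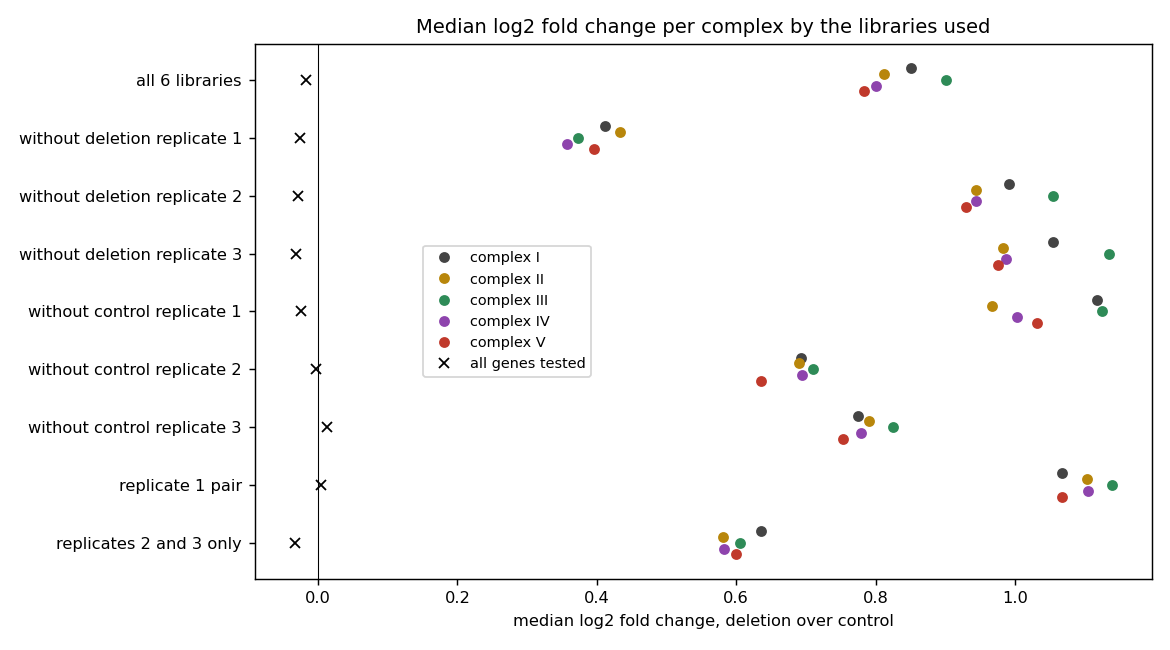
Median log2 fold change (x axis, deletion over control) per complex and over all genes tested (crosses) for each choice of libraries (y axis). Each complex keeps a positive median in each choice drawn, lowest without deletion replicate 1, and all genes stay near 0.

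In the authors' deposited table, 81 of the 84 genes had a score above 0.95 on the higher side and 1 on the lower side. Of all 14798 genes, 5183 (35%) had such a score on the higher side and 6514 on the lower side, so most genes passed it. The median log2 fold change in the authors' deposited table was 0.75 over the 84 genes and -0.04 over all genes.

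Markers of cardiomyocytes moved with these genes. All 20 cardiomyocyte markers had a positive log2 fold change, with a median of 0.80, and 0 had an adjusted p below 0.05 by edgeR. Their summed CPM was 186573, 99848 and 92317 in deletion scars, against 97618, 60421 and 64591 in control scars, the same order of libraries as for the respiratory genes. Divided by this sum, the summed CPM of the respiratory genes was 0.237, 0.227 and 0.215 in deletion scars and 0.225, 0.210 and 0.231 in control scars, with overlapping groups. Myh6, the alpha myosin heavy chain and the marker with the highest mean, was at 53110, 21118 and 22199 CPM in deletion scars, against 23326, 14020 and 14945 CPM in control scars.

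Fibroblast markers ran the other way. All 14 were negative, with a median log2 fold change of -0.41 and 0 adjusted p-values below 0.05 by edgeR. An unadjusted p below 0.05 by edgeR on the lower side was reached by 0 of the 14, and by 449 of 14771 genes. The groups did not overlap in 1 of the 14, against 8.6% of all genes on that side. Their summed CPM was 6628, 16086 and 14230 in deletion scars, against 15128, 17565 and 17728 in control scars. These sums overlapped, with deletion replicate 2 above control replicate 1. Deletion replicate 1, the library highest in respiratory genes, was the lowest in fibroblast markers. All 8 macrophage markers were negative (median -0.52), with summed CPM of 663 to 1332 in deletion scars and 1019.6 to 2272 in control scars. Of 8 endothelial markers 6 were positive (median 0.31), with sums of 682 to 1362 CPM in deletion scars and 658 to 792 CPM in control scars. The part of the cell makeup in the result was not tested, and in whole tissue fewer cells of a type and less RNA per cell cannot be told apart.

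The summed markers of skeletal muscle, brown fat and fat cells lay far below the cardiomyocyte sum in every library. The part of these cell types in the result was not tested. Skeletal muscle markers summed to 23.9 to 46.1 CPM over 10 genes in deletion scars and 30.9 to 90.2 CPM in control scars, with 9 of 10 negative. Brown adipocyte genes were represented by Cidea, Dio2 and Prdm16, with sums of 77.7 to 92.2 CPM in deletion scars and 120.4 to 185 CPM in control scars. Of these, Dio2, which is also expressed outside brown fat, had a log2 fold change of -1.44, while Cidea had 0.31 and Prdm16 had 0.52. Ucp1, Elovl3 and Zic1 were not among the listed genes. The 5 adipocyte markers tested summed to 289.8 to 898 CPM in deletion scars and 235 to 648 CPM in control scars, nearly all of it Fabp4, which endothelium also expresses. Adipoq, which marks fat cells, was at 0.0528, 0.350 and 0 CPM in deletion scars, against 16.3, 0.841 and 0.861 CPM in control scars.

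**Figure D5:**
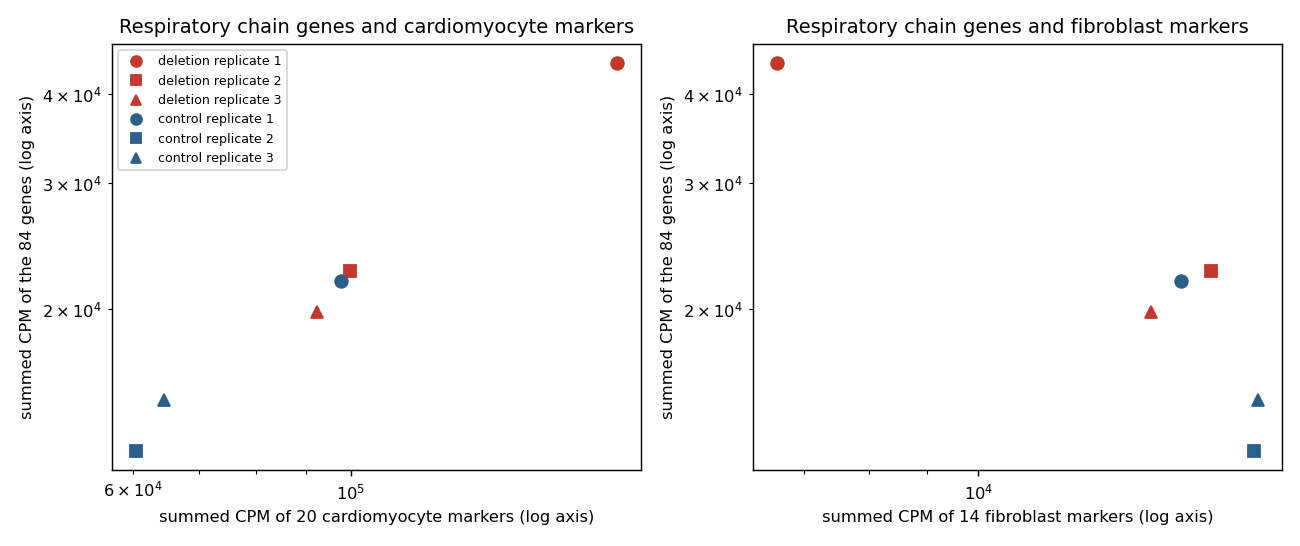
Summed CPM of the 84 genes (y axis, log) against the summed CPM of cardiomyocyte markers and of fibroblast markers (x axes, log), per library, deletion in red and control in blue. The 6 libraries line up with the cardiomyocyte sum, and deletion replicate 1 is at the low end of the fibroblast sum, at 6628 CPM.

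Genes that build the chain had positive log2 fold changes too, smaller in the median than those of the subunits, and none passed the adjusted test. Of 52 assembly factors of complexes I to V, 51 were measured, and all 51 had a positive log2 fold change with a median of 0.47. Of these, 8 had an unadjusted p below 0.05 on the higher side, where 5.3% of all genes had one, and 9 had no overlap between the groups, against 8.87% of all genes, while 0 had an adjusted p below 0.05 by edgeR. Coa5, a complex IV assembly factor and the list's gene with the highest mean, was at 266, 185 and 185 CPM in deletion scars and 179.6, 142 and 141 CPM in control scars (0.46 ± 0.21, SE), with all deletion libraries above the controls. Of 17 genes of mitochondrial genome maintenance and transcription, 15 were measured and 14 were positive, with a median of 0.39 and 0 adjusted p-values below 0.05 by edgeR. Lonp1, a protease of the mitochondrial matrix, was at 197, 168 and 169 CPM in deletion scars and 171, 128 and 129 CPM in control scars (0.32 ± 0.17, SE), with overlap through control replicate 1.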

How the data were processed

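The authors deposited raw counts per gene, per the file headers, from scar RNA (RNeasy columns, ScriptSeq v2 libraries from 100 ng, per the labels' protocols). Per the submitters' processing notes, the tools were Trim Galore, STAR and deepTools and the build was mm10. No source used here gives the counting tool or its strand setting. The same deposited table holds the authors' signal values (TMM, per the file headers), a deposited log2 fold change, and a deposited score from 0 to 1, which the authors' header calls prob_FDR.

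Counts were tested as deposited in edgeR 4.0.16 under R 4.3.3 by its quasi-likelihood test (robust fit, TMM factors, filterByExpr per group and a prior count of 2), genotype only, with 4 residual degrees of freedom. All 14771 genes kept by the filter were tested and adjusted together (Benjamini-Hochberg, threshold 0.05). CPM values are TMM-scaled, and levels per kilobase use the deposited length. DESeq2 1.42.0 was an alternative, and its size factors, other filters, a prior count of 0.5, halved even counts, leaving out Rn45s, a term for even-count libraries, a replicate block and leaving out each library were others. Each standard error is the absolute log2 fold change divided by the square root of the F statistic of this test. It therefore depends on the genotype-only model as well as on the totals and replicates.

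Of the 84 genes, 22 share exonic bases with another gene in GENCODE vM21, 3 with one on the same strand and 20 with one on the opposite strand, so their counts are uncertain. These include Ndufa11 (with Vmac), Cox6a2 (with Itgad), Cox4i1 (with Emc8), Ndufa13 (with Tssk6), Ndufa2 (with Tmco6), Uqcrb (with Gm10767), Atp5l (with Gm30934) and Ndufa4l2 (with Shmt2).

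The genes, lists and pairs were chosen with earlier results of these data known. Named by rule were, per complex, the highest mean CPM, the highest and the lowest log2 fold change, and also the isoform pairs, the 5 smallest p-values, the negative genes and the highest gene of each other list. Of these, 1 gene is not reported here; it stays in the counts, sums and medians. Sdhc, Uqcrc1, Uqcrc2, Uqcrfs1, Atp5g3, Atp5s, Atp5sl, Cox7a2l, Myh6, Adipoq, Dio2, Cidea, Prdm16, Ddx3y, Rn45s, Xist, Cox5b and Ndufs6 were named after their values were seen.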

Additional observations from a re-analysis of the deposited data

How the results depend on the processing

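Leaving out each library in turn by edgeR gave medians from 0.37 to 1.06 over the 84 genes, from 0.41 to 1.12 for complex I, from 0.43 to 0.98 for complex II, from 0.37 to 1.13 for complex III, from 0.36 to 1.002 for complex IV, from 0.40 to 1.03 for complex V and from 0.34 to 1.21 for Cycs, with 0 genes called each time. Complex IV was at 0.36 without deletion replicate 1 by DESeq2 as well. Alternatives added after the data were seen were the analysis without TMM factors, the one without both the highest and the lowest library, and DESeq2 with added terms or fewer libraries.

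Without both deletion replicate 1 and control replicate 2, medians were 0.24 over the 84 genes, 0.27 for complex I, 0.31 for complex II, 0.29 for complex III, 0.21 for complex IV, 0.24 for complex V and 0.13 for Cycs. The cause was not tested. Genes called over the whole table numbered 1 by edgeR with the even-count term, 51 by DESeq2, 1927 by DESeq2 with the even-count term, 1035 in replicates 2 and 3 and 91 without deletion replicate 1. Respiratory genes called by DESeq2, all on the higher side, numbered 75 with the even-count term. On that side 9.48% of the 13911 genes with an adjusted p were called. They numbered 69 in replicates 2 and 3, against 6.49% of the 11337 genes with an adjusted p. Without deletion replicate 1 they numbered 4, against 52 of all 14792 genes tested.

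Some log2 fold changes turned in sign. Without TMM factors Cox6a1 was at -0.12, the median of all genes at -0.15 and that of the 84 genes at 0.66. Leaving out each library in turn put Cox6a1 between -0.049 (without control replicate 2) and 0.074, Ndufa4l2 between -0.13 and 0.088 (without control replicate 3), and Cox4i2 between -0.071 (without deletion replicate 1) and 0.68. Cox6a1 was also negative without deletion replicate 2, and Ndufa4l2 positive without deletion replicate 3. By DESeq2 without deletion replicate 1, Cox4i2 was at -0.0652. The replicate 1 pair had Cox6a1 at -0.0907 and Ndufa4l2 at 0.27. Without the highest and lowest library, Cox4i2 was at -0.15, Uqcrb at -0.0978, Atp5l at -0.0208, Cox6a1 at -0.0599 and Atp5g2 at -0.0644, although Uqcrb, Atp5l and Atp5g2 were at 0.68, 0.60 and 0.71 with all 6 libraries. The causes were not tested.

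The replicate numbers were not taken as pairs, since genotype is the only design factor the labels give. Deviations of same-numbered libraries correlated at 0.48, 0.01 and 0.18 for replicates 1, 2 and 3. Control replicate 1 correlated at -0.40 and -0.39 with deletion replicates 2 and 3. Deletion replicate 1 correlated at -0.21 and -0.34 with control replicates 2 and 3. Replicate 1 of both groups thus deviated alike, which the main test did not model. With the replicate number as a block, edgeR called 0 genes and gave a median of 0.77. It put 75 of the 84 at an unadjusted p below 0.05 on the higher side, where 10.9% of all genes were. On the lower side 1 of the 84 reached that p, and 2560 of 14771 genes reached it in either direction. DESeq2 with the block called 1096 genes. It called 72 of the 84, all on the higher side, where it called 811 of 14771 genes. Not every library correlated best with its own number.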

Other observations

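In 72 of the 84 genes, replicate 1 was the highest library of each group. The mean log2 CPM of both replicate 1 libraries minus that of the other 4 had a median of 0.83 over the 84 genes and was largest in Ndufs6 (1.46) and Cox5b (1.39), next to Cox6a2 (1.38). Cox5b, a complex IV subunit on the matrix side, was at 737, 369 and 319.9 CPM in deletion scars and 748, 224 and 246 CPM in control scars, so that replicate 1 of both groups was at one level and the other 4 libraries lay far below. Its log2 fold change was 0.23 ± 0.56 (SE). Ndufs6, a zinc-binding subunit of complex I, was at 280.0, 90.2 and 77.7 CPM in deletion scars and 118, 48.8 and 56.4 CPM in control scars. Cox6b2 went the other way, at its lowest in replicate 1 of each group. The replicate 1 libraries are those with odd as well as even counts and with high Rn45s, and the part of that difference in these values was not tested.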
